A study of Homo sapiens with 16 samples.

Results

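The genes described here are the protein arginine methyltransferases of human cells together with the cofactor of PRMT5, 9 genes chosen by name among the 33937 genes of the count table: PRMT1, PRMT2, PRMT3, CARM1 (also called PRMT4), PRMT5, PRMT6, PRMT7, PRMT9 and WDR77 (also called MEP50). All 9 had a row in the table and all 9 passed the filter on low counts in every comparison. PRMT8, the brain-enriched enzyme of the family, held 0 or 1 count in every library and was not among them.

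The 16 RNA-seq libraries were made from HCT116, an established line of human colorectal carcinoma cells, and form 4 groups of 4. The scramble (SCR) control line and the NAA40 KnockDown line were each kept in the presence or absence of doxycycline (1 μg/ml) over 96 h, and the groups are named here as in the sample descriptions: CTRL-Dox, CTRL-wDox, KD-Dox and KD-wDox. Each line carries a doxycycline-inducible short hairpin RNA, the control line a scrambled one, so no group is an unmodified line, and the NAA40 line represents 1 hairpin. The titles and treatment entries give the wDox groups as grown without doxycycline, although the short name can be read either way. The methods state 4 independent RNA samples per group, so p-values measure the spread between these samples.

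Protein arginine methyltransferases transfer methyl groups from S-adenosylmethionine (SAM) to the side chain of arginine in histones, splicing factors and RNA-binding proteins. Type I enzymes (PRMT1, PRMT2, PRMT3, CARM1, PRMT6) leave asymmetric dimethylarginine, type II enzymes (PRMT5, PRMT9) leave symmetric dimethylarginine, and PRMT7 leaves monomethylarginine. PRMT5 works as a complex with the WD-repeat protein WDR77, and NAA40 acetylates the N terminus of histones H4 and H2A, next to an arginine that PRMT1 and PRMT5 methylate.

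To show the region from which the members with the clearest differences are read, the 200 bases before the RefSeq start site (GRCh38.p14) are printed for WDR77, its partner PRMT5, and PRMT2 and PRMT3. They are written 5′ to 3′ on the strand of the gene. Capitals mark matches on either strand to 5 short motifs, named next with their counts, which were picked after the promoters had been seen and which overlap at no base in these windows.
WDR77, chr1:111449257-111449456, minus strand: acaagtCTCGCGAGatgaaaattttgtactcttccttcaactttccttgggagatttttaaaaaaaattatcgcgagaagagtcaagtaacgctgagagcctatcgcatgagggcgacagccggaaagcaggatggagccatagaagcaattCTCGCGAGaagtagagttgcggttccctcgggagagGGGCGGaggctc
PRMT5, chr14:22929377-22929576, minus strand: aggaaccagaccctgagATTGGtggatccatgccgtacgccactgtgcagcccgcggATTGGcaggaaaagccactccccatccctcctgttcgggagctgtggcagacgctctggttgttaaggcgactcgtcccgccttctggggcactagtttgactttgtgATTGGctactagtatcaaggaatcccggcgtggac
PRMT2, chr21:46635474-46635673, plus strand: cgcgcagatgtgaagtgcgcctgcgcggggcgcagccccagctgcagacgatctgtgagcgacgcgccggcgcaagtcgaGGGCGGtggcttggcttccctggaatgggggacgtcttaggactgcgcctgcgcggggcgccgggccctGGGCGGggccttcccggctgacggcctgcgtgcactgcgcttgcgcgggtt
PRMT3, chr11:20387516-20387715, plus strand: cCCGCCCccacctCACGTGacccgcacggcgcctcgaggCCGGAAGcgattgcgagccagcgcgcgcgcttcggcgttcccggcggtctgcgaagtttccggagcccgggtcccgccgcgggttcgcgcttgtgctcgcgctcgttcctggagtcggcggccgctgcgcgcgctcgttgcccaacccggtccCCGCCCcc

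The palindrome CTCGCGAG stood at 2 places in the WDR77 window, with first bases at -194 and -48 from the start, and in no other member's window. Of the 35116 windows of the same length in the table, 0.76% held it. The PRMT5 window held the CCAAT box 3 times, each on the reverse strand (ATTGG), a motif found in 28.03% of all windows. PRMT3 had 1 match to the E-box CACGTG (5.49% of windows) and 1 to CCGGAAG (7.71%), and both PRMT2 (2 matches) and WDR77 (1 match) held the GC box GGGCGG (40.1%), as did PRMT3 on the reverse strand (2 matches). Among the members not printed, PRMT7, PRMT9 and CARM1 also held the GC box, and PRMT1 held the CCAAT box. The start of WDR77 lies 208 bases from that of ATP5PB, a subunit gene of the mitochondrial ATP synthase that is read in the opposite direction, so the WDR77 window is also the region before ATP5PB. These matches describe letters only.

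NAA40, the target of the hairpin, was measured first. Its level, in CPM (counts scaled to the size of the library by TMM normalization), ran from 25.9 to 34.4 in CTRL-wDox, 26.0 to 28.8 in CTRL-Dox, 28.6 to 31.8 in KD-Dox and 9.25 to 13.8 in KD-wDox. The KD-wDox mean was 40.2% of CTRL-wDox and 39.0% of KD-Dox, each with an exact two-sided permutation p = 0.0286, the smallest that 4 libraries against 4 allow. The KD-Dox mean was 110.8% of CTRL-Dox (exact permutation p = 0.0571). Without KD-Dox replicate 3 it was 112.8% (exact permutation p = 0.0286), and the other refits without 1 library gave exact permutation p-values of 0.0571 to 0.114. The log2 fold change was 0.15 (edgeR quasi-likelihood test, Benjamini-Hochberg adjusted p = 0.281), called in 0 of 8 refits. NAA40 was therefore low in the libraries labelled KD-wDox and not in those labelled KD-Dox. This goes against the titles if wDox means without doxycycline. Every direction below rests on the labels, and CTRL-wDox and CTRL-Dox, which carry no NAA40 hairpin, are the background for both.

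Total counts ran from 11065606 to 13855486 per library. The epithelial genes EPCAM, CDH1, KRT8, KRT18, KRT19 and CDX2 were present in every library, CDX2 lowest at 16.8 to 31.4 CPM. Their summed level was 5125.5 to 11070.2 CPM in KD-wDox and 3804.5 to 5496.7 CPM in the other groups. KRT8 and CDH1 were called higher in KD-wDox against KD-Dox, by 0.95 and 0.43 on the log2 scale, where 10.2% of all genes were called. KRT18 (0.52), KRT19 (0.72), CDX2 (0.03) and EPCAM (-0.29) were not called there. KRT8 kept its call in 2 of 8 fits that left out 1 library. In the same comparison without KD-wDox replicate 4, 4 of the 6 genes were called higher and 1 lower, where 52.4% of all genes were called. In KD-wDox against CTRL-wDox 0 of the 6 were called, where 6.42% of all genes were called. KRT8 was called lower in KD-Dox against CTRL-Dox, with a log2 fold change of -0.32, where 24.5% of all genes were called. The part of these epithelial genes in the results below was not tested. Of 7 markers of other cell types, PTPRC, CD3E, COL1A2, DCN, PECAM1 and CDH5 held at most 4 counts in any library, while COL1A1 stood at 56.6 to 195 CPM, its highest value in KD-wDox. The library KD-wDox replicate 4 stood apart. Its log2 CPM minus the median of the other 3 KD-wDox libraries had r = 0.894 with the GC content of the longest transcript over 13879 genes, against -0.547 to 0.641 for the other 15 libraries, and it had an SD of 0.925 against 0.218 to 0.362. For the members, results that rest on it are given with and without it. The marker levels above include it. Without it the log2 fold change of COL1A1 in KD-wDox was -0.05 against CTRL-wDox and 0.05 against KD-Dox. With all libraries these were 0.46 and 0.54, neither called.

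Per kilobase of exonic sequence, PRMT1 was the most abundant member. In CTRL-wDox it stood at 58.9 ± 5.4 CPM per kilobase (SD, n = 4), followed by CARM1 at 23.1 ± 1.86 and PRMT5 at 21.1 ± 1.84. PRMT1, the main asymmetric enzyme, was clearly apart from the rest, while CARM1 and PRMT5 differed by about their spread.

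WDR77 (8.57 ± 1.63), PRMT2 (7.70 ± 0.40) and PRMT3 (6.99 ± 0.95), all on the scale of CPM per kilobase, formed a middle group within each other's spread. PRMT3 is a largely cytosolic enzyme that binds a protein of the small ribosomal subunit. PRMT9 (3.73 ± 0.13), which methylates the splicing factor SF3B2, was below them, and PRMT7 (2.22 ± 0.22) and PRMT6 (2.21 ± 0.50), a nuclear enzyme with activity on histone H3, were lowest and did not differ beyond their spread. With the length of the longest transcript in place of all exons, PRMT1, CARM1, PRMT5 and PRMT6 kept their places in CTRL-wDox, PRMT2 came before WDR77, and PRMT7 came before PRMT9.

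**Figure D1:**
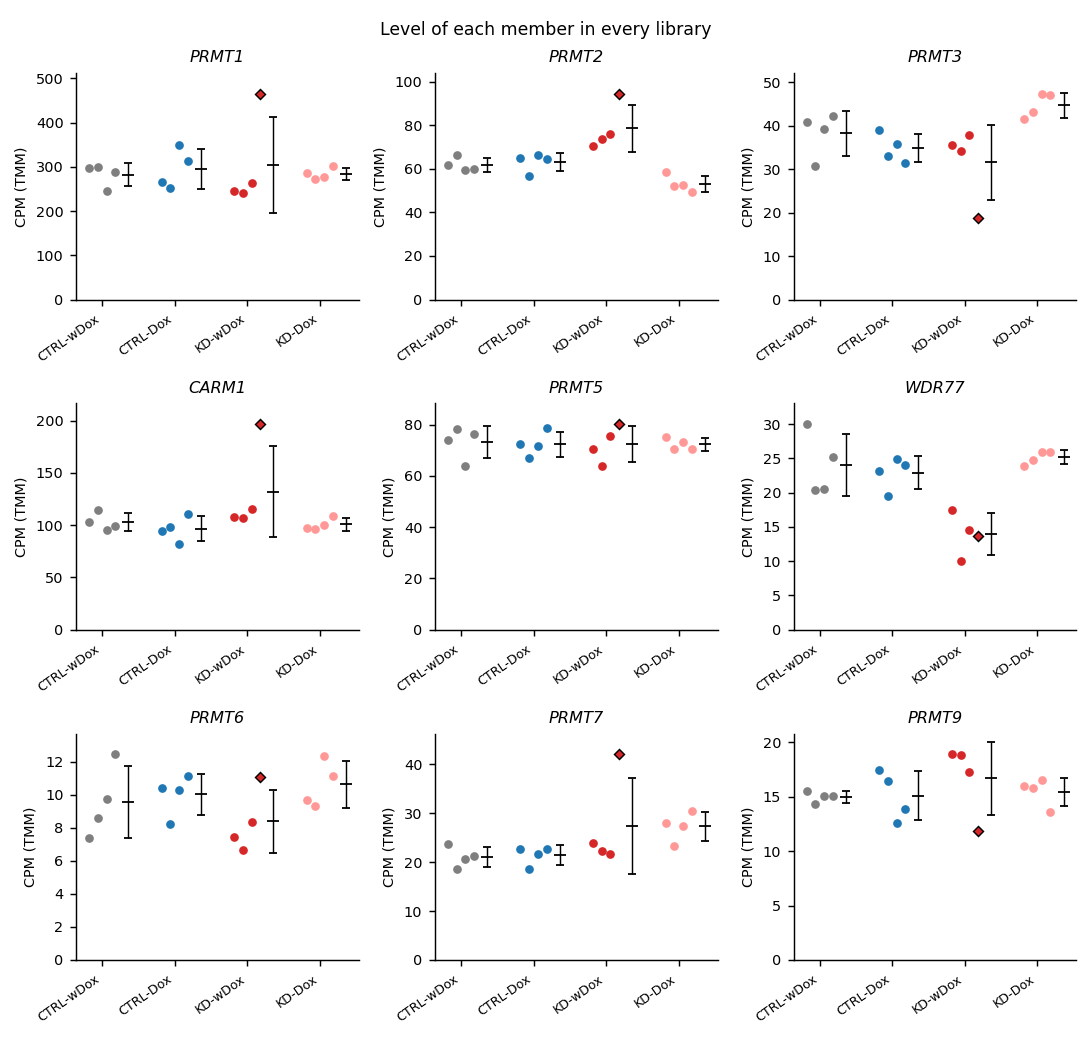
TMM-normalized CPM of the 9 members (vertical axes, from 0) in the 4 libraries of each group, with the mean and SD to the right of each group and KD-wDox replicate 4 as a diamond. PRMT1, CARM1 and PRMT7 have their highest value in that library and PRMT3 its lowest, whereas WDR77 is low in all 4 KD-wDox libraries.

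WDR77 (ENSG00000116455) carried the widest differences between groups of the 9 members. The gene lies on chromosome 1 from 111439890 to 111449376, minus strand, in GRCh38. In CTRL-wDox its level was 30.0, 20.4, 20.5 and 25.2 CPM in replicates 1 to 4, and in CTRL-Dox 23.2, 19.5, 24.9 and 24.1 CPM. In KD-Dox it was 23.9, 24.7, 25.9 and 26.0 CPM, and in KD-wDox 17.5, 10.0, 14.6 and 13.6 CPM. The highest KD-wDox library was thus below the lowest of the other 12, and the other 3 groups overlapped.

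Against KD-Dox, WDR77 fell by 0.85 on the log2 scale in KD-wDox (SE 0.17, edgeR quasi-likelihood test with Benjamini-Hochberg adjusted p = 0.0181). Against CTRL-wDox the log2 fold change was -0.78 (SE 0.21, edgeR adjusted p = 0.0578), short of the threshold of 0.05. Without KD-wDox replicate 4 it was also -0.78, with an edgeR adjusted p of 0.00416, where 36.5% of all genes were called. Of the 8 refits without 1 library, only that without KD-wDox replicate 4 called WDR77 against CTRL-wDox. The others had edgeR adjusted p-values up to 0.175, and a replicate block gave 0.111. Of the 9 alternatives that left out no library, the block among them, 4 called WDR77 against CTRL-wDox. These were DESeq2 (adjusted p = 0.00862), the fit of all 16 libraries (edgeR adjusted p = 0.00296), the GC offset (0.00452) and no filter on low counts (0.0466). DESeq2 called 13.8% of all genes there and the GC offset 36.2%. The interaction asks whether the difference between the lines under the wDox label differs from that under the Dox label, and for WDR77 it was -0.92 (SE 0.23, edgeR adjusted p = 0.0184). The interaction was called in each of the 16 refits without 1 library. The call against KD-Dox was lost without any 1 of the 4 KD-Dox libraries, with edgeR adjusted p-values of 0.0563 to 0.0704 and log2 fold changes of -0.88 to -0.83.

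PRMT5 (ENSG00000100462), the enzyme that WDR77 serves, lies on chromosome 14 from 22920511 to 22929585, minus strand. Its level was 73.9, 78.4, 64.0 and 76.3 CPM in CTRL-wDox and 70.3, 64.0, 75.6 and 80.2 CPM in KD-wDox. It was 72.3, 66.8, 71.8 and 78.6 CPM in CTRL-Dox and 75.3, 70.3, 73.2 and 70.4 CPM in KD-Dox. The 4 groups overlapped and their means differed by less than the spread within each.

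The log2 fold change of PRMT5 was 0.00 in KD-wDox against CTRL-wDox, with a 95% confidence interval from -0.33 to 0.32. Against KD-Dox it was 0.01, with an interval from -0.27 to 0.28. These intervals leave room for a change of either sign of about that size.

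The ratio of WDR77 to PRMT5, each per kilobase, was 0.407 ± 0.074 in CTRL-wDox, 0.391 ± 0.029 in CTRL-Dox, 0.430 ± 0.027 in KD-Dox and 0.237 ± 0.050 in KD-wDox (SD, n = 4). It ran from 0.194 to 0.308 in KD-wDox, and the lowest value among the other 12 libraries was 0.321. The ratio is free of library scaling, since both genes are read in the same library. It is a ratio of transcripts, and no protein was measured.

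**Figure D2:**
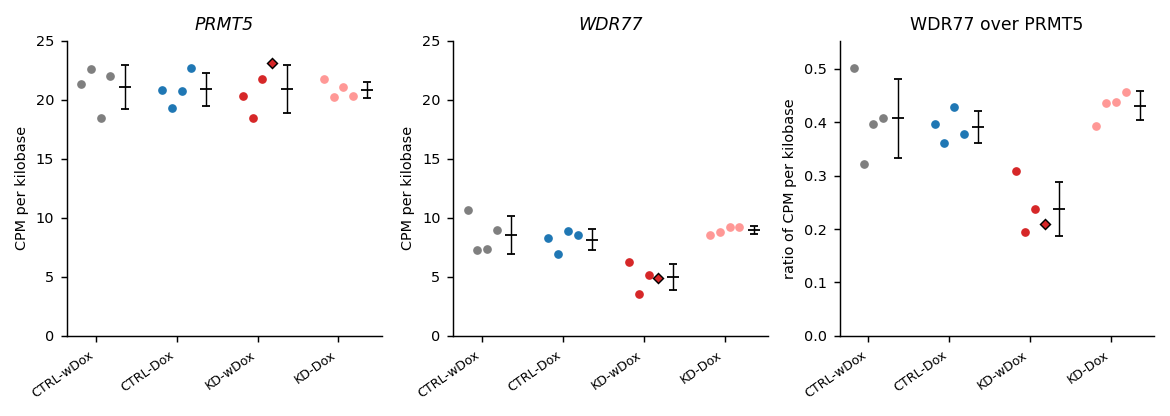
Level of PRMT5 and of WDR77 in CPM per kilobase, on the same vertical scale, and the ratio of WDR77 to PRMT5 (right), in each library, with mean and SD; KD-wDox replicate 4 is a diamond. The PRMT5 libraries of all groups overlap, and the ratio is 0.194 to 0.308 in KD-wDox against 0.321 or more elsewhere.

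WDR77 shares exonic bases with ATP5PB on the opposite strand. The methods name a stranded library kit. Whether the counting used strand is not given in the sources used here, so reads from the overlap cannot be told apart. ATP5PB stood at 175 ± 21.6 CPM in CTRL-wDox and 126 ± 22.9 CPM in KD-wDox, with a log2 fold change of -0.47 (SE 0.17, edgeR adjusted p = 0.136). In KD-wDox against KD-Dox ATP5PB gave -0.29 (SE 0.15, edgeR adjusted p = 0.250), and in the interaction -0.17 (SE 0.22, edgeR adjusted p = 0.660). A list of S phase markers was also read. It holds genes of DNA replication such as MCM4 and wider markers of cell division such as MKI67. The summed level of all 14 was 1264.9 to 1510.2 CPM in KD-wDox and 2500.3 to 3092.5 CPM in the other libraries, and 7 of 14 fell against CTRL-wDox, where 6.42% of all genes were called, with a median log2 fold change of -0.92 against 0.04 over all genes. All 14 fell against CTRL-wDox in the fit without KD-wDox replicate 4, where 36.5% of all genes were called. Against KD-Dox 9 of 14 fell, where 10.2% of all genes were called. In that comparison without replicate 4, 13 fell and 1 rose, where 52.4% were called. MCM6 stood at 0.29 against KD-Dox and at 0.09 in the interaction, neither called, where WDR77 fell. In KD-Dox against CTRL-Dox MCM6 was called at -0.93. The part of these markers in the WDR77 result was not tested. In bulk RNA, fewer cells of a kind and less RNA per cell cannot be told apart.

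PRMT2 (ENSG00000160310; chromosome 21, 46635167 to 46665124, plus strand), a type I enzyme also known as a coactivator of nuclear receptors, differed in the other direction. Its level in KD-wDox was 70.2, 73.8, 76.0 and 94.4 CPM, and in KD-Dox 58.3, 52.1, 52.4 and 49.4 CPM. In CTRL-wDox it was 61.7, 66.4, 59.3 and 59.8 CPM, and in CTRL-Dox 64.9, 56.9, 66.1 and 64.4 CPM. All 4 KD-wDox libraries were above the other 12, and KD-Dox was the lowest group, with its highest library inside the range of the control line.

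PRMT2 rose in KD-wDox against KD-Dox by 0.57 on the log2 scale (SE 0.14, edgeR adjusted p = 0.0330), and the interaction was 0.60 (SE 0.16, edgeR adjusted p = 0.0263). With its highest library, KD-wDox replicate 4, left out, the values were 0.47 (edgeR adjusted p = 1.59e-06) and 0.50 (edgeR adjusted p = 0.00288). Leaving out any 1 of the other 7 libraries ended the first call, with edgeR adjusted p-values up to 0.127. A block for the replicate number also ended it (0.56, edgeR adjusted p = 0.0982). The interaction was lost without CTRL-Dox replicate 1 or 4, CTRL-wDox replicate 1, 3 or 4, or KD-Dox replicate 2, 3 or 4, at 0.56 to 0.60 with edgeR adjusted p-values of 0.0512 to 0.0646. Against CTRL-wDox the log2 fold change was 0.36 (SE 0.15, edgeR adjusted p = 0.184), and 0.24 (edgeR adjusted p = 0.0294) without that library. PRMT2 shares no exonic base with another gene.

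PRMT2 fell in KD-Dox against CTRL-Dox by 0.25 on the log2 scale (SE 0.09, edgeR adjusted p = 0.0499), at the threshold itself. The groups overlapped at 1 library on each side. The call was lost without any library other than CTRL-Dox replicate 2, with edgeR adjusted p-values up to 0.172.

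PRMT3 (ENSG00000185238; chromosome 11, 20387530 to 20509294, plus strand) was highest in KD-Dox. Its level there was 41.5, 43.0, 47.3 and 46.9 CPM, against 38.9, 33.1, 35.8 and 31.5 CPM in CTRL-Dox. It was 40.9, 30.7, 39.2 and 42.2 CPM in CTRL-wDox and 35.6, 34.1, 37.8 and 18.8 CPM in KD-wDox. The KD-Dox libraries were above all CTRL-Dox and KD-wDox libraries and met only CTRL-wDox, and 1 KD-wDox library, replicate 4, lay far below the rest.

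PRMT3 rose in KD-Dox against CTRL-Dox by 0.36 on the log2 scale (SE 0.10, edgeR adjusted p = 0.0122), a call lost in the fit of all 16 libraries (edgeR adjusted p = 0.254) and, among the 8 refits without 1 library, only without KD-Dox replicate 3 (0.34, edgeR adjusted p = 0.0508). Against KD-Dox, KD-wDox gave -0.50 (SE 0.21, edgeR adjusted p = 0.159), and -0.32 (edgeR adjusted p = 0.000877) without replicate 4. The interaction was -0.63 (SE 0.25, edgeR adjusted p = 0.118), and -0.45 (edgeR adjusted p = 0.0288) without it. With an offset for GC content and all libraries, PRMT3 was called in neither. It gave -0.23 (edgeR adjusted p = 0.176) in KD-wDox against KD-Dox and -0.33 (edgeR adjusted p = 0.147) in the interaction. PRMT3 had the lowest GC content of the members, 34.8%, and no exonic overlap.

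PRMT7 (ENSG00000132600; chromosome 16, 68310974 to 68358563, plus strand), the monomethylating enzyme, stood at 27.9, 23.3, 27.4 and 30.5 CPM in KD-Dox and at 22.8, 18.5, 21.7 and 22.7 CPM in CTRL-Dox. In CTRL-wDox it was 23.6, 18.6, 20.5 and 21.2 CPM, and in KD-wDox 23.8, 22.2, 21.6 and 42.1 CPM. The KD-Dox and CTRL-Dox libraries did not overlap, and 3 of the 4 KD-wDox libraries lay within or just above the range of the control line. PRMT7 rose in KD-Dox against CTRL-Dox by 0.35 on the log2 scale (SE 0.11, edgeR adjusted p = 0.0285), a call lost in the fit of all 16 libraries (edgeR adjusted p = 0.299) and without CTRL-Dox replicate 2 or KD-Dox replicate 1, 3 or 4 (0.28 to 0.35, edgeR adjusted p = 0.0652 to 0.105). It shares exonic bases with SMPD3 on the opposite strand, which fell in the same comparison by 0.75 on the log2 scale (SE 0.19, edgeR adjusted p = 0.00772), at 2.80 ± 0.47 CPM in KD-Dox.

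PRMT1 (ENSG00000126457; chromosome 19, 49675786 to 49689029, plus strand) was 245, 240.2, 264 and 465 CPM in KD-wDox. CARM1 (ENSG00000142453; chromosome 19, 10871513 to 10923070, plus strand), a coactivator-associated enzyme that methylates histone H3, was 108, 107, 115 and 197 CPM there. In both genes replicate 4 was far above the other 3, which lay within or close to the range of the other groups: PRMT1 ran from 245 to 349 CPM and CARM1 from 82.3 to 114 CPM in the other 12 libraries.

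No call was made for either gene with all libraries. For PRMT1 in KD-wDox against KD-Dox the log2 fold change was 0.10 (SE 0.22), and without replicate 4 it was -0.19 (SE 0.05, edgeR adjusted p = 0.00350), so that the sign turned with 1 library. For CARM1 in the same comparison it was 0.39 (SE 0.21), and 0.13 (SE 0.06, edgeR adjusted p = 0.0577) without that library. CARM1 shares exonic bases with YIPF2 on the opposite strand, at 70.2 ± 29.5 CPM in KD-wDox and 32.6 ± 3.84 CPM in CTRL-wDox.

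In KD-wDox replicate 4 the members moved with their GC content. PRMT3 (GC 34.8%) and PRMT9 (41.3%) differed in that library from the median of the other 3 by -0.91 and -0.66 in log2 CPM. PRMT1 (56.8%), PRMT7 (57.4%) and CARM1 (61.9%) differed by 0.93, 0.91 and 0.86. WDR77 (48.6%) differed by -0.09 and PRMT5 (51.9%) by 0.19, while PRMT6 (47.4%) and PRMT2 (48.0%) differed by 0.56 and 0.35, above the upper quartile of 0.084 among the 2352 genes with a GC content of 45 to 50%. PRMT3 was also above the upper quartile of its GC step, -1.23, and CARM1 below the lower quartile of its own, 0.944. Over all genes the median difference ran from -1.57 at a GC content of 30 to 35% to 1.69 at 70 to 75%.

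**Figure D3:**
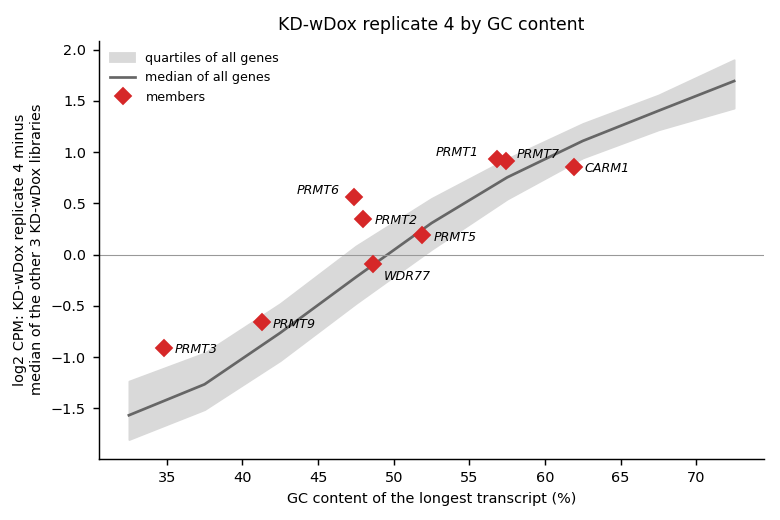
Log2 CPM in KD-wDox replicate 4 minus the median of the other 3 KD-wDox libraries (vertical axis) against GC content of the longest transcript (horizontal axis), with the median and quartiles of all genes in steps of GC content and the 9 members as diamonds. PRMT1, PRMT7 and CARM1 lie at 0.86 to 0.93, PRMT3 at -0.91, and WDR77 close to 0.

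PRMT6 (ENSG00000198890; chromosome 1, 107056679 to 107067636, plus strand) and PRMT9 (ENSG00000164169; chromosome 4, 147637785 to 147684230, minus strand) were among the least abundant members by CPM, at 6.68 to 12.5 and 11.8 to 18.9 CPM over the 16 libraries. With all libraries and no offset for GC content, no comparison called either. With that offset PRMT9 was called in KD-wDox against CTRL-wDox (0.31, edgeR adjusted p = 0.0352) and against KD-Dox (0.28, edgeR adjusted p = 0.0335). PRMT6 was not called with it, at -0.30 (edgeR adjusted p = 0.206) against KD-Dox. PRMT6 rests on 87 to 168 counts per library, and in KD-wDox against CTRL-wDox the 95% confidence interval of its log2 fold change, from -0.69 to 0.33, was wide. When KD-wDox replicate 4 was left out, PRMT6 gave -0.50 (edgeR adjusted p = 0.00299) and PRMT9 0.25 (edgeR adjusted p = 0.0341) in KD-wDox against KD-Dox. Neither was called in the interaction under that setting, with values of -0.43 and 0.26.

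Counted over the 9 members, KD-wDox against CTRL-wDox gave 0 calls by edgeR at an adjusted p under 0.05, where 6.42% of 13903 genes were called (2.88% higher and 3.54% lower). At an unadjusted p under 0.05 there were 2 members, WDR77 and PRMT2, against 23.6% of all genes. DESeq2 called 1 member and 13.8% of all genes, and limma-voom 0 members and 6.21% of all genes. The groups did not overlap for these 2 members, against 21.8% of all genes. Both were called without KD-wDox replicate 4, against 36.5% of all genes, and with an offset for GC content 3 were called, WDR77, PRMT2 and PRMT9, against 36.2% of all genes.

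In KD-Dox against CTRL-Dox, 3 of 9 members were called, where 24.5% of 13869 genes were called. PRMT3 and PRMT7 were higher (10.9% of all genes) and PRMT2 was lower (13.7%). The groups did not overlap for PRMT3 and PRMT7, against 27.0% of all genes. The members' share was close to that of all genes.

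In KD-wDox against KD-Dox, 2 of 9 were called, where 10.2% of 13844 genes were called, with PRMT2 higher (5.50% of all genes) and WDR77 lower (4.71%). The groups did not overlap for 3 members, WDR77, PRMT2 and PRMT3, against 29.7% of all genes. In the fit without KD-wDox replicate 4, 7 members were called, all but CARM1 and PRMT5, against 52.4% of all genes, and with the GC offset 3 were called, WDR77, PRMT2 and PRMT9, against 44.2%.

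In CTRL-Dox against CTRL-wDox, the 2 groups of the scramble line, 0 of 9 members and 0% of 13882 genes were called by edgeR. DESeq2 and limma-voom also called 0 members and 0% of all genes, no member had an unadjusted p under 0.05, and 271 of all genes (1.95%) did by edgeR. The groups overlapped for all 9 members, while 1.58% of all genes did not overlap. The log2 fold changes of the members ran from -0.14 for PRMT3 to 0.06 for PRMT1 and PRMT6.

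In the interaction, 2 of 9 were called, where 9.22% of 14392 genes were called, with PRMT2 above 0 (4.91% of all genes) and WDR77 below 0 (4.31%). PRMT3 was added without KD-wDox replicate 4, giving 3, against 24.2% of all genes, and with the GC offset the 2 were called, against 29.1%. No member passed an absolute log2 fold change of 1 together with the adjusted p in any comparison. By that rule 3.47% of all genes were called in KD-wDox against CTRL-wDox, 2.15% in KD-Dox against CTRL-Dox, 3.99% in KD-wDox against KD-Dox and 4.49% in the interaction. KD-wDox enters 3 of these fits and KD-Dox 3, so the counts are not independent of each other.

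**Figure D4:**
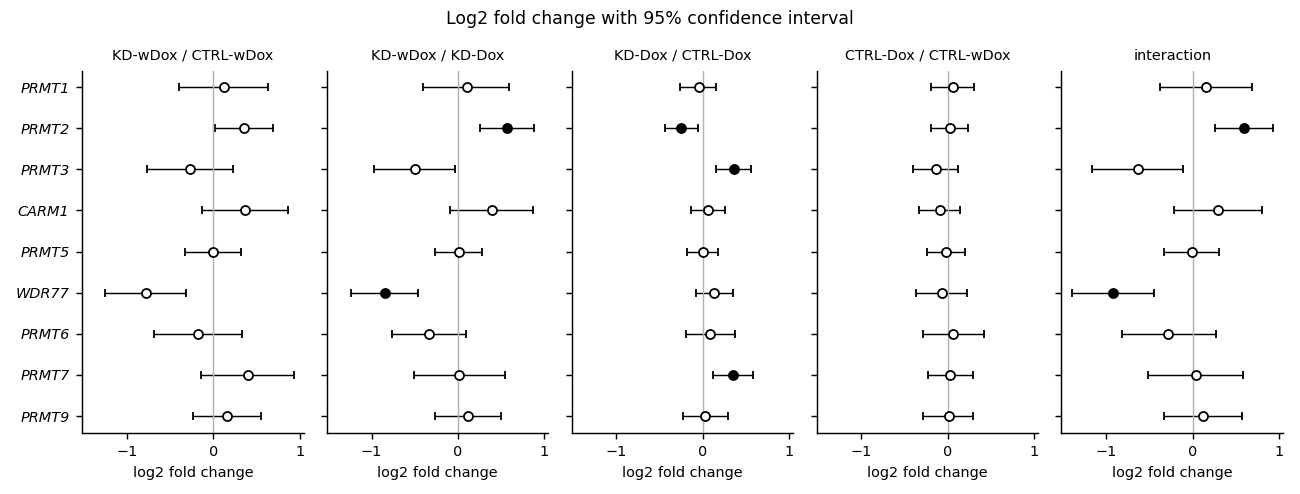
Log2 fold change (horizontal axes) of the 9 members in the 4 comparisons and the interaction, with 95% confidence intervals from the edgeR fit; filled points have an adjusted p under 0.05. WDR77 lies at -0.78 to -0.92 wherever KD-wDox enters, and PRMT5 within 0.02 of 0 throughout.

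The 3 members with the widest range of group means were WDR77 (0.87 in log2 CPM), PRMT2 (0.56) and PRMT3 (0.55), and the genes whose log2 CPM followed each most closely were sought over the 16 libraries. For WDR77 these were CHAF1B, a subunit of the chromatin assembly factor that loads histones on new DNA (r = 0.926), MCM4, a subunit of the replicative helicase (r = 0.923), and GPATCH4 (r = 0.920). For PRMT2 they were MLX (r = 0.967), SHISA5 (r = 0.964) and ITPKC (r = 0.960), and for PRMT3 SRFBP1 (r = 0.978), PUS7 (r = 0.977) and TMEM209 (r = 0.976). Without KD-wDox replicate 4, over 15 libraries, the 9 values ran from 0.907 to 0.944. The libraries share their groups and their composition in GC, and r is given as a description.

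Between members, WDR77 and PRMT5 had r = 0.22 over 16 libraries and 0.45 without KD-wDox replicate 4, and WDR77 and PRMT2 had -0.72 and -0.67. PRMT1 and PRMT9 had -0.86 and -0.85, whereas PRMT1 and CARM1 went from 0.63 to -0.22 without that library.

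The other enzymes known to methylate arginine were 3, PRMT8, NDUFAF7 and METTL23, of which the last 2 were tested. METTL23, a nuclear enzyme, fell in KD-Dox against CTRL-Dox by 0.46 on the log2 scale (SE 0.11, edgeR adjusted p = 0.00703), from 18.7 ± 2.13 to 13.6 ± 0.88 CPM. Neither was called in KD-wDox against CTRL-wDox.

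Of 9 genes that bind or regulate the enzymes, 2 rose and 0 fell in KD-wDox against CTRL-wDox, and 1 rose and 2 fell in KD-Dox against CTRL-Dox. Over all genes 6.42% were called in the first comparison and 24.5% in the second. AJUBA, a LIM protein that recruits PRMT5, was at 50.0 ± 4.14 CPM in CTRL-wDox and 92.2 ± 22.7 CPM in KD-wDox (log2 fold change 0.89, SE 0.19, edgeR adjusted p = 0.0276). In KD-Dox against CTRL-Dox AJUBA fell by 0.35 on the log2 scale (SE 0.09, edgeR adjusted p = 0.0122). BTG1, an antiproliferative protein that binds PRMT1, fell in KD-Dox against CTRL-Dox by 1.05 on the log2 scale (SE 0.10, edgeR adjusted p = 4.84e-07), while its relative BTG2 rose in both comparisons, by 0.56 and 0.35. Of the 8 refits without 1 library, AJUBA kept its call in 2 and BTG2 in 1 in the first comparison. In the second, AJUBA and BTG1 kept their calls in all 8 and BTG2 in 4. The median over the 9 was -0.08 and 0.08, against 0.04 and 0.00 over all genes. With KD-wDox replicate 4 left out, 3 of the 9 were higher and 3 lower than in CTRL-wDox. In that fit, which is also the one of the counts below without this library, 36.5% of all genes were called.

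Among 35 genes whose proteins are methylated on arginine, 5 fell and 0 rose in KD-wDox against CTRL-wDox, where 2.88% of all genes rose and 3.54% fell. The median log2 fold change of the 35 was -0.24, against 0.04 over all genes. NCL (nucleolin), with 1208 ± 135 CPM in CTRL-wDox and 610.05 ± 54.7 CPM in KD-wDox, fell by 0.98 on the log2 scale (SE 0.14, edgeR adjusted p = 0.00539). It was called in each of the 8 refits without 1 library. HNRNPU and HNRNPA1, which bind nuclear RNA, fell by 0.77 and 0.53, and E2F1, the cell cycle factor that PRMT1 and PRMT5 methylate, by 1.08; HNRNPA1 and E2F1 kept their call in 1 of the 8 refits and HNRNPU in 7. Leaving out KD-wDox replicate 4 made 14 of the 35 lower and 3 higher, against 36.5% of all genes called in either direction.

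In KD-Dox against CTRL-Dox, 4 of the 35 substrates rose and 2 fell, where 24.5% of all genes were called, with a median of -0.07. NCOA3, a nuclear receptor coactivator that CARM1 methylates, fell by 0.80 (SE 0.12, edgeR adjusted p = 0.000145). NCL was not called there, with a log2 fold change of 0.13.

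Of 15 genes that read, convert or clear methylarginine, 11 were tested. In KD-wDox against CTRL-wDox, where 6.42% of all genes were called, 1 of them fell, PADI3, an arginine deiminase. It stood at 1.28 ± 0.37 CPM in KD-wDox and 3.76 ± 0.91 CPM in CTRL-wDox, a call kept in 4 of 8 refits. With KD-wDox replicate 4 left out, 2 were higher and 2 lower. In KD-Dox against CTRL-Dox 1 rose and 4 fell, where 24.5% of all genes were called. DDAH1 and DDAH2, both named for the breakdown of dimethylarginine, moved apart there, DDAH1 by 0.44 (SE 0.09, edgeR adjusted p = 0.00111) and DDAH2 by -0.58 (SE 0.10, edgeR adjusted p = 0.000503). The Tudor-domain proteins SND1 and AKAP1 fell by 0.40 and 0.45, and PADI3 by 0.90.

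Of 13 genes that supply SAM or remove its products, 11 were tested. In KD-wDox against CTRL-wDox, where 6.42% of all genes were called, 1 of them rose, MAT1A, a SAM synthetase gene known mainly from liver. It stood at 10.7 ± 1.23 CPM in KD-wDox and 2.47 ± 0.52 CPM in CTRL-wDox, a log2 fold change of 2.11 (SE 0.21, edgeR adjusted p = 0.00238), and was called in all 8 refits without 1 library. In the absence of KD-wDox replicate 4, 2 of the 11 were higher and 2 lower. In KD-Dox against CTRL-Dox edgeR called none, where 24.5% of all genes were called.

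Spliceosomal snRNP assembly is a process that uses Sm proteins methylated by the PRMT5 and WDR77 complex. Of 15 genes of this process, 1 rose in KD-wDox against CTRL-wDox, where 6.42% of all genes were called. It was GEMIN8, by 0.75 (edgeR adjusted p = 0.0225), kept in 1 of 8 refits. With KD-wDox replicate 4 left out, 1 was higher and 2 lower. In KD-Dox against CTRL-Dox 4 rose and 1 fell. GEMIN8, DDX20, GEMIN4 and GEMIN5 rose by 0.40, 0.31, 0.29 and 0.26, and SNRPD2, an Sm protein, fell by 0.39, each kept in 2 or 3 of 8 refits. GEMIN2, GEMIN6, GEMIN7 and STRAP, which belong to the SMN complex as the 4 risen genes do, were not called, at -0.12, -0.24, -0.16 and -0.20. The share was 5 of 15 where 24.5% of all genes were called, and the median was -0.12.

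**Figure D5:**
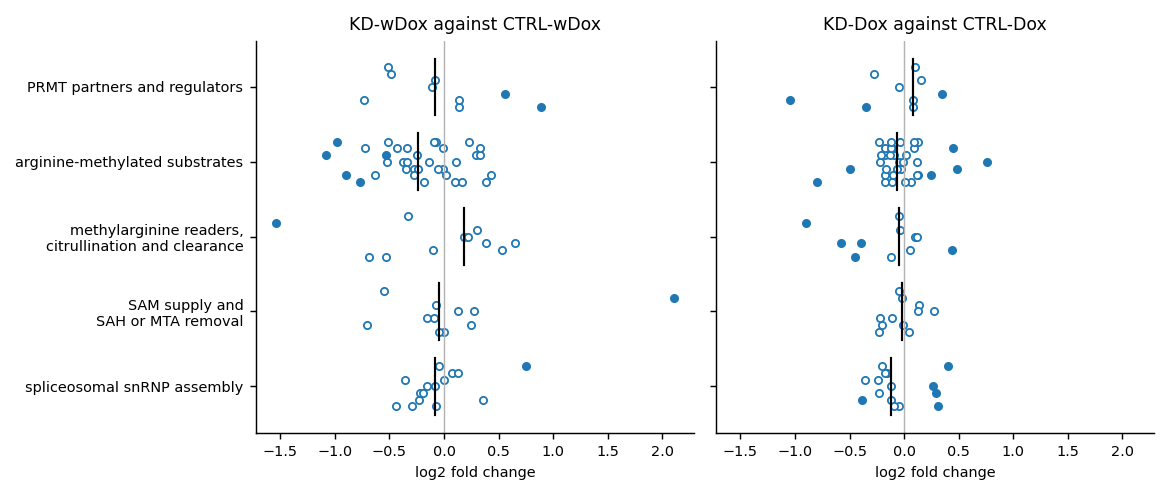
Log2 fold change (horizontal axes) of the tested genes of 5 lists around arginine methylation in KD-wDox against CTRL-wDox and in KD-Dox against CTRL-Dox; filled points have an adjusted p under 0.05 and vertical bars are the medians. The median of the substrates lies at -0.24 on the left and -0.07 on the right, and MAT1A is the point at 2.11.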

How the data were processed

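The authors deposited raw featureCounts counts of STAR alignments for 33937 human Ensembl identifiers in 16 columns, all matched to samples. The submitters' processing notes list both hg38 and GRCm38, the methods name a mouse build, and the identifiers are human. The strand setting is not given in the sources used here. Coordinates, exonic lengths, overlaps and GC content come from GENCODE 29 (GRCh38), and promoters from RefSeq (GRCh38.p14), where all 9 members matched.

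From the counts, edgeR 4.0.16 in R 4.3.3 (TMM, robust quasi-likelihood F test, two-sided, Benjamini-Hochberg over all genes) was fitted to genes with CPM above 1 in at least 4 libraries, on the 8 libraries of each comparison and on all 16 for the interaction. Standard errors follow from the log2 fold change and its F statistic. A call is an adjusted p under 0.05. Alternatives were DESeq2 1.42.0, limma-voom 3.58.1, other scalings and filters, a replicate block, a GC offset (lowess, span 0.3) and leaving out each library. Scripts were tested on simulated data.

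The members, lists and tests were chosen with earlier results of these data known. From each list up to 6 called genes were named, first those of KD-wDox against CTRL-wDox, then of KD-Dox against CTRL-Dox, by size, and the 3 genes most like each of the 3 members with the widest range. 1 gene that this rule names is not reported here. Samples were not paired by replicate number. Those with the same number had correlations of their deviations from 0.034 to 0.237 in KD-wDox against KD-Dox, and down to -0.416 in other comparisons. Total counts per library (11065606 to 13855486) set the counting error, largest for PRMT6.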

Additional observations from a re-analysis of the deposited data

Results flagged for a closer look

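PRMT1 (465 CPM), CARM1 (197 CPM) and PRMT7 (42.1 CPM) each lay in KD-wDox replicate 4 far above the other 3 libraries of the group, with a gap over the group's range of 0.896, 0.903 and 0.892, past Dixon's 95% critical value. Of 40 gene and group pairs tested these 3 passed, all in that library, and chance gives about 1 in 20. The GC content of these genes is 56.8%, 61.9% and 57.4%, and that library's differences moved with GC content over all genes. Its part in the values was not tested beyond the GC offset, under which the log2 fold changes in KD-wDox against CTRL-wDox were -0.07 for PRMT1, 0.13 for CARM1 and 0.19 for PRMT7.

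For WDR77 and PRMT2 the difference between the lines was not the same under the wDox and Dox labels, by the interaction of line and label. It was -0.92 for WDR77 (edgeR adjusted p = 0.0184, 0.00160 to 0.0475 over the alternatives) and 0.60 for PRMT2 (edgeR adjusted p = 0.0263, 0.00163 to 0.258 over the alternatives).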

How the results depend on the processing

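Members called in KD-wDox against CTRL-wDox numbered 0, and 1 with DESeq2, 1 with no filter on low counts, 2 in the fit of all 16 libraries, 3 with the GC offset and 1 at an adjusted p under 0.1. In KD-Dox against CTRL-Dox they numbered 3, and 2 with scaling by library size only, with no filter and with a CPM above 1 in every library, and 0 with all 16 libraries, at 0.01 and with a log2 fold change above 1. In KD-wDox against KD-Dox they numbered 2, and 3 with all 16 libraries, 3 with the GC offset, 1 with no filter, 1 with the replicate block (PRMT2 lost, edgeR adjusted p = 0.0982), 0 at 0.01 and 0 with the fold rule. In the interaction they numbered 2, and 1 with no filter, 0 at 0.01 and 0 with the fold rule. Leaving out 1 library gave 0 to 2, 0 to 2, 0 to 7 and 1 to 3 calls in these 4, and 0 in CTRL-Dox against CTRL-wDox. The highest counts where KD-wDox enters came from the fit without KD-wDox replicate 4, which called 36.5%, 52.4% and 24.2% of all genes. With all 16 libraries, 2951, 966 and 3209 of 14392 genes were called in the comparisons in the order given. With no filter they were 1052 of 31026, 3358 of 30935, 1114 of 30970 and 1013 of 33937. In KD-wDox the GC offset called 36.2% of all genes against CTRL-wDox and 44.2% against KD-Dox.

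Without KD-wDox replicate 4, PRMT1 (-0.19) and PRMT7 (-0.27) turned sign in KD-wDox against KD-Dox, where leaving out 1 library gave -0.19 to 0.20 and -0.27 to 0.12. Without KD-Dox replicate 3, KD-Dox against CTRL-Dox had 0 calls among the members. Of the members' log2 fold changes under alternatives, 705 kept their direction and side of the threshold, 40 lost a call, 15 gained one, 66 changed sign without a call under either setting, and 2 turned. WDR77 was called in the interaction under all 24 refits. The cause of the other changes was not tested.

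Genes called over the whole table were 892 in KD-wDox against CTRL-wDox (1914 with DESeq2, 2951 with all 16 libraries, 5018 with the GC offset, 82 with the replicate block, 226 to 5021 without 1 library) and 3402 in KD-Dox against CTRL-Dox (966 with all 16 libraries). They were 1414 in KD-wDox against KD-Dox (2526 with DESeq2, 3209 with all 16 libraries, 6105 with the GC offset, 777 with the replicate block, 380 to 7184 without 1 library) and 1327 in the interaction (4177 with the GC offset, 820 to 3465 without 1 library). In CTRL-Dox against CTRL-wDox there were 0, and 1 with no filter. Samples with the same number had correlations of their deviations from -0.416 to 0.237, so the block rests on numbers alone. Scaling by library size only or by the upper quartile moved the median of all genes by less than 0.1 in each comparison.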
